A study of Mus musculus with 17 samples.

Results

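The mouse mitochondrial genome is a small circle that encodes 13 proteins of the respiratory chain and ATP synthase, 2 ribosomal RNAs and 22 transfer RNAs. These 37 genes were taken by their symbols, which start with mt_ in the deposited table of 21982 genes, and all 37 were present. They were measured by mRNA-seq in brown adipose tissue of 17 mice (strain background C57BL/6). Mice were wild type (Noc+/+) or lacked Nocturnin (Noc-/-, gene Noct), and each was kept alone and without food at 22 °C or 6 °C for 4 h. At 22 °C there were 4 mice of each genotype, and at 6 °C there were 5 wild types and 4 knockouts, littermates per the series' text. Of 9 wild types 2 were labelled male, and of 8 knockouts 6 were, so labelled sex was a term of the model. Labelled ages ran from 11.14 to 23.57, with no unit given. Which exons the Noc-/- allele lacks was not stated in the labels.

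Both strands of the circle are copied into long RNAs that run through many genes. POLRMT, the mitochondrial RNA polymerase, makes them with the help of TFAM and TFB2M, and transfer RNAs lying between the other genes are cut out, which frees the messenger and ribosomal RNAs. Brown fat is among the tissues richest in mitochondria, and cold makes it burn fuel there for heat.

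Library totals ran from 18410748 to 47598200 counts. Noct read 91.5 to 457 CPM (counts-per-million, scaled between libraries by TMM) in wild types and 3.37 to 34.2 CPM in knockouts, with no overlap. All 12 brown adipocyte markers were counted, with Ucp1 at 3684 to 7847 CPM. Summed levels of 15 skeletal muscle markers ran from 27.2 to 1496 CPM and spread widely in every group. The 12 brown adipocyte markers summed to 10035 to 11402 CPM in wild types at 22 °C. At 6 °C they summed to 12108 to 14769 CPM, without overlap. In knockouts the sums were 10220 to 13945 and 12020 to 15380 CPM. Ucp1 weighs most in these sums, and the members did not move together. By edgeR's quasi-likelihood test (adjusted p below 0.05), 3 were higher and 4 lower at 6 °C in wild types (median -0.01 log2). In knockouts 2 were higher and 2 lower (median 0.0085). Over all tested genes the shares were 14.3% (higher) and 13.3% (lower) in wild types and 11.6% and 10.0% in knockouts. The 12 macrophage markers summed to 61.7 to 87.4 CPM in wild types at 22 °C and 58.0 to 85.8 CPM at 6 °C, and to 54.8 to 63.0 CPM and 62.4 to 109 CPM in knockouts. The 11 endothelial markers summed to 455 to 572 and 553 to 696 CPM in wild types, and to 534 to 567 and 495 to 709 CPM in knockouts. Of 8 white adipocyte markers 1 was at 0 in all libraries, and the list summed to 43.0 to 81.3 CPM. The 7 red cell markers summed to 40.8 to 192 CPM. The part of these cells in the results below was not tested. In whole tissue, fewer cells of a type and less RNA per cell cannot be told apart.

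Of the 37 genes, 9 carried nearly all mitochondrial counts. Each of these had more than 1000 counts in every library, from 9684 for mt_Nd6 in 1 library to 5524170 for mt_Cytb in another, and together they took 99.999% of mitochondrial counts. They are 7 protein-coding genes, namely mt_Nd1, mt_Nd2, mt_Nd4, mt_Nd5 and mt_Nd6 of complex I (NADH dehydrogenase), mt_Cytb of complex III and mt_Co1 of complex IV (cytochrome c oxidase), and both ribosomal RNAs, mt_Rnr1 of the small and mt_Rnr2 of the large subunit. The other 6 protein-coding genes were close to 0. These are mt_Co2 and mt_Co3 of complex IV, mt_Atp6 and mt_Atp8 of ATP synthase, and mt_Nd3 and mt_Nd4l of complex I. Among their 102 values, 47 were 0 and 1 exceeded 100, the 1292 counts of mt_Co3 in knockout 22 °C replicate 2. mt_Nd4l had no count in any library, which allows up to 3 counts in all, or 0.00581 CPM over the 516611179 counts of the 17 libraries.

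**Figure D1:**
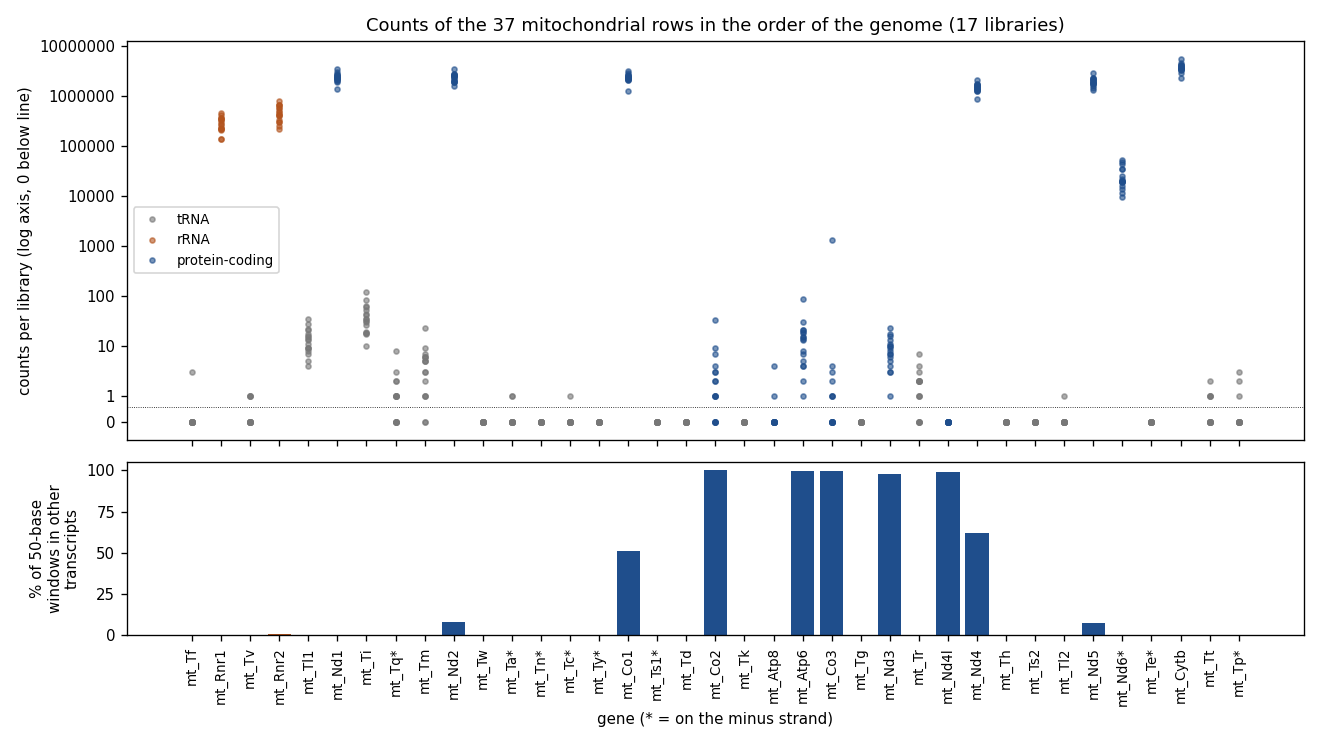
Counts of each mitochondrial gene in each of the 17 libraries (upper panel, log axis, points below the dotted line are 0) and the percentage of its 50-base windows that another annotated transcript also holds (lower panel, %), with genes in genome order and coloured by class. The protein-coding genes from mt_Co2 to mt_Nd4l are near 0, and 5 of those 6 share at least 98.0% of their windows.

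The low genes lie side by side. On the mitochondrial chromosome of GRCm38 (GENCODE vM21), all 9 genes from mt_Co2 (chrM:7013-7696) to mt_Nd4l (chrM:9877-10173) were low, 3 transfer RNAs included, and their 1843 counts made up 0.000722% of mitochondrial counts. The same annotation places a row of 7 pseudogenes on chromosome 1, on the minus strand between 24611535 and 24616197, each matching a mitochondrial gene in the same order. Compared base by base, Gm28661 matched all 681 bases it shares with mt_Co2, Gm10925 all 678 of mt_Atp6, Gm28437 all 783 of mt_Co3, Gm10222 all 294 of mt_Nd4l and Gm28439 the first 876 of mt_Nd4. Gm29216 matched 486 of the last 492 bases of mt_Co1. mt_Atp8 (chrM:7766-7969) has no annotated copy transcript. But for the 43 bases by which it overlaps mt_Atp6, it falls in the 233 bases between the matched parts of mt_Co2 and mt_Atp6, and the corresponding chromosome 1 gap is 233 bases as well. Counts of the 7 pseudogenes were not analysed here.

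The start of mt_Nd3 is shown beside its copy because the pair differs at only 1 of 345 compared bases, T3C, counted from 1 at the first base of mt_Nd3. Capitals mark that base, and the stretches are chrM:9459-9578 (plus strand) and chr1:24613000-24613119 (minus strand), each written 5′ to 3′.
mt_Nd3: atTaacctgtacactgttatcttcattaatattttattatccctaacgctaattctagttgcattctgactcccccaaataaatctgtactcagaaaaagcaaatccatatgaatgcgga
Gm28438: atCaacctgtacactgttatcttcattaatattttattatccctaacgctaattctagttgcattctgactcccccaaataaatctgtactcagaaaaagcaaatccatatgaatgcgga

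A read that lies wholly inside an identical stretch matches both chromosomes. Of all 50-base windows, 98.0 to 100% in mt_Co2, mt_Atp6, mt_Co3, mt_Nd3 and mt_Nd4l were also found in other annotated transcripts. In mt_Co1 the figure was 51.1% and in mt_Nd4 62.2%, the copies on other chromosomes included, and in the other 7 abundant genes it was at most 8.19%. Neither the read length nor the handling of reads with several matches is stated in the labels, and the part of these copies in the low counts was not tested. The counts of the 5 low genes with copies are uncertain for this reason, and those of mt_Co1 and mt_Nd4 may rest on part of each gene.

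Transfer RNAs were nearly uncounted in these mRNA-seq libraries, which does not give their amounts in the tissue. Of 22, 10 had no count in any library and the other 12 had 1105 counts in all, or 4.33 CPM of mitochondrial counts. Of these, 93.4% fell on mt_Ti, mt_Tl1 and mt_Tm, with 707, 242 and 83 counts over the 17 libraries. The next, mt_Tr, had 29. They are printed because they hold most tRNA counts, 5′ to 3′ from the plus strand with the anticodon in capitals, at chrM:2676-2750 for the leucine tRNA mt_Tl1, chrM:3706-3774 for the isoleucine tRNA mt_Ti and chrM:3845-3913 for the methionine tRNA mt_Tm.
mt_Tl1: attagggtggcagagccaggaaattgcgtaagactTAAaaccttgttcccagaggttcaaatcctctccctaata
mt_Ti: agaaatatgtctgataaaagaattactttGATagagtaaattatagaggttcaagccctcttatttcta
mt_Tm: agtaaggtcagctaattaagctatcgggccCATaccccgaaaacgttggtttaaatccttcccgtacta

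mt_Ti had 63, 122, 18 and 26 counts in wild types at 22 °C and 53, 83, 30, 18 and 32 in wild types at 6 °C. In knockouts it had 44, 35, 17 and 10 counts at 22 °C and 41, 61, 35 and 19 at 6 °C. The groups overlapped throughout. The glutamine tRNA mt_Tq, on the other strand between mt_Ti and mt_Tm, had 21 counts over the 17 libraries. mt_Tl1, mt_Ti and mt_Tm lie around mt_Nd1 and mt_Nd2. Of other tRNAs beside abundant genes, mt_Tw at the end of mt_Nd2 had 0 counts and mt_Tt after mt_Cytb had 6. mt_Te, before mt_Cytb but on the other strand, had 0. The part of neighbouring genes in the tRNA counts was not tested.

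By RPKM, mt_Cytb was the highest gene in every library. Its RPKM (CPM of the unscaled library per 1000 bases of gene, as deposited) ran from 89739 to 131099, with a mean of 107980 over the 17 libraries. mt_Nd1 followed with a mean of 81639 RPKM, and exceeded mt_Nd2 (75194) in 14 of 17 libraries. mt_Co1 had 50194 RPKM. mt_Nd4 (35594) and mt_Nd5 (35230) did not keep an order, mt_Nd4 being higher in 7 of 17 libraries. Nor did the ribosomal RNAs, at 10022 RPKM for mt_Rnr1 and 9867 for mt_Rnr2, with mt_Rnr1 higher in 9 of 17. mt_Nd6 came last of the abundant genes, at 1557 RPKM. Every other step of this order held in all 17 libraries. The libraries are mRNA-seq, so the place of the ribosomal RNAs below the messengers describes these counts and not amounts in the tissue.

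When counts were divided by the windows that no other transcript holds, a measure added after the data had been seen, mt_Co1 moved in the order from the fourth to the second place and mt_Nd4 from the fifth to the third. The unscaled CPM per 1000 such windows was then 112812 for mt_Cytb, 106088 for mt_Co1, 97707 for mt_Nd4, 86045 for mt_Nd1, 85960 for mt_Nd2 and 39182 for mt_Nd5. mt_Rnr1, mt_Rnr2 and mt_Nd6 kept the last places of the 9. By this measure mt_Cytb exceeded mt_Co1 in 11 of 17 libraries, mt_Co1 exceeded mt_Nd4 in 14, mt_Nd4 exceeded mt_Nd1 in 14 and mt_Nd1 exceeded mt_Nd2 in 10. The first place of mt_Cytb in every library and the places of mt_Co1, mt_Nd4, mt_Nd1 and mt_Nd2 therefore depend on the length used.

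**Figure D2:**
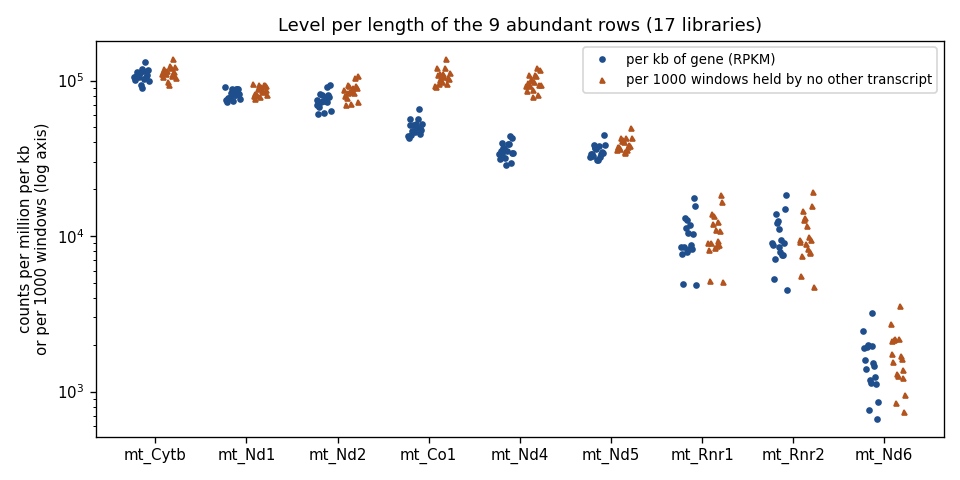
Level per length (unscaled CPM per length, log axis) of the 9 abundant genes in each of the 17 libraries, per kilobase of gene (circles) and per 1000 windows of 50 bases that no other annotated transcript holds (triangles). mt_Co1 and mt_Nd4 move up with the second measure, to means of 106088 and 97707, and the other 7 genes move little.

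mt_Nd6, a complex I subunit, is the only protein-coding gene on the minus strand of the annotation, in the company of 8 transfer RNAs that had 30 counts in all. Its end overlaps the end of mt_Nd5 by 14 bases. This junction is shown because mt_Nd6 is the member that fell in knockouts, and because no strand setting is stated for the counting: without strand, RNA of mt_Nd6 and RNA from the opposite strand of the same stretch cannot be told apart. The last 40 bases of each gene are written 5′ to 3′, with the overlap in capitals, for mt_Nd5 at chrM:13526-13565 (plus strand) and for mt_Nd6 at chrM:13552-13591 (minus strand).
mt_Nd5: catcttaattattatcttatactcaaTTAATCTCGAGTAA
mt_Nd6: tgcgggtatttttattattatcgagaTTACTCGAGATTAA

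Mitochondrial genes took 43.4 to 57.3% of a library. The share was 48.3, 45.4, 46.6 and 48.9% in wild types at 22 °C and 50.5, 49.2, 52.2, 47.4 and 43.4% in wild types at 6 °C. In knockouts it was 50.3, 51.9, 49.1 and 57.3% at 22 °C and 48.7, 51.6, 57.0 and 46.4% at 6 °C. The cold and 22 °C groups overlapped within each genotype. At 22 °C every knockout lay above every wild type (52.1% ± 3.61 against 47.3% ± 1.57, SD, n = 4 and 4), and at 6 °C the genotypes overlapped (50.9% ± 4.58 against 48.5% ± 3.35, n = 4 and 5). The lowest knockout at 22 °C had 49.1% and the highest wild type 48.9%. These shares are sums over the chosen genes as counted and were not tested. They hold almost nothing from the 6 low protein-coding genes, and the handling of reads that also match nuclear copies is not stated. They were not adjusted for labelled sex, which is uneven between the genotypes. Members are also given below relative to nuclear and to mitochondrial counts.

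**Figure D3:**
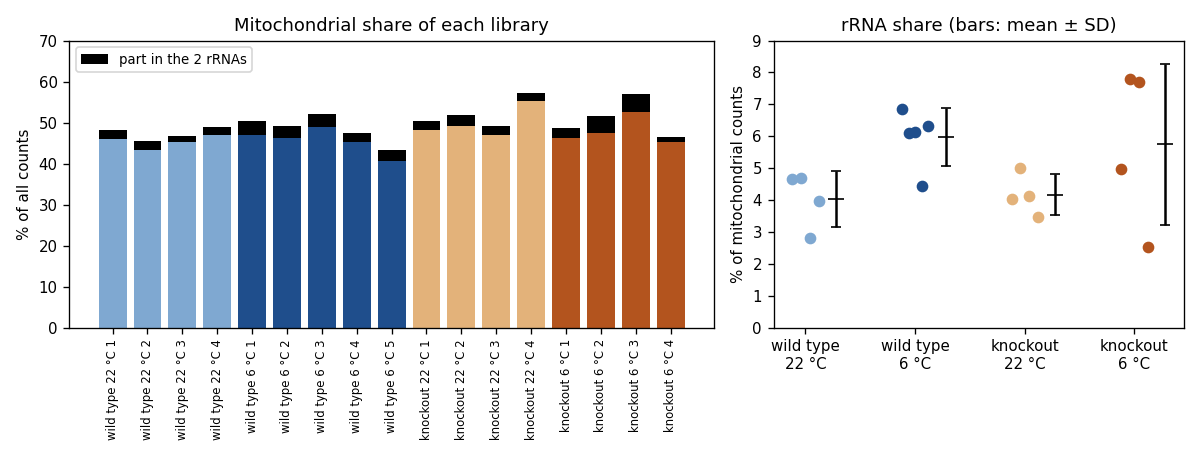
Left, percentage of each library's counts in mitochondrial genes, with the part in the 2 ribosomal RNAs in black. Right, ribosomal RNAs as a percentage of mitochondrial counts in each library, with the group mean ± SD. Shares of libraries lie between 43.4 and 57.3%, and knockout 6 °C replicate 4 has the lowest ribosomal share, 2.52%.

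The first comparison asked how the wild-type organelle's transcripts respond to 4 h of cold. The ribosomal RNAs were higher in the cold, mt_Rnr2 by 0.85 ± 0.31 log2 (SE) and mt_Rnr1 by 0.81 ± 0.30, and of these mt_Rnr2 passed the test. Ribosomal RNAs form the core of the mitochondrial ribosome, which makes the 13 encoded proteins. Ribosomes were not measured, and the part of mRNA-seq library preparation in the ribosomal RNA counts was not tested. The messengers of the same strand were little different, from 0.14 to 0.34 log2. "Rose" and "fell" are used here for a Benjamini-Hochberg adjusted p below 0.05 in edgeR's quasi-likelihood test over the 12486 tested genes. By this measure 1 of 13 tested members rose and none fell, where 27.6% of all tested genes passed (14.3% rose). The other 24 members had too few counts to be tested.

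mt_Rnr2 read 12565, 12716, 7643 and 10014 CPM in wild types at 22 °C. At 6 °C it read 22914, 20063, 22453, 13354 and 16477 CPM. Every cold library was above every 22 °C library, with means of 10734 ± 2405 and 19052 ± 4080 CPM (SD), and mt_Rnr2 rose (adjusted p = 0.0479). mt_Rnr1 read 7094, 6742, 4237 and 7194 CPM at 22 °C and 13109, 11255, 13684, 7554 and 9396 CPM at 6 °C. Its groups did not overlap either, but it missed the threshold (adjusted p = 0.0512). Of all tested genes, 25.8% had wild-type groups without overlap. Among the 13 tested members, 2 did, the ribosomal RNAs.

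The mt_Rnr2 call lay at the edge of the threshold. It was lost in 10 of 15 other settings, among them scaling to total counts (0.63, adjusted p = 0.1) or to mitochondrial counts (0.59, 0.111), the model without sex (0.83, 0.0551) and the model with the replicate number as a block and sex (0.84, 0.0837). It was also lost without any 1 of 14 libraries, namely wild-type 22 °C replicate 1, 2, 3 or 4, wild-type 6 °C replicate 1, 2, 3 or 5, any 1 of the 4 knockouts at 22 °C, and knockout 6 °C replicate 1 or 2 (log2 values of 0.74 to 0.98, adjusted p of 0.0508 to 0.128). It held on the 2 wild-type groups alone (0.86, adjusted p = 0.00766) and in DESeq2 (0.86, 0.0275), where mt_Rnr1 rose as well (0.82, 0.0154). In edgeR the mt_Rnr2 call also held without wild-type 6 °C replicate 4 (0.95, 0.0341). The same was true without knockout 6 °C replicate 3 (0.84, 0.0259) or 4 (0.86, 0.00439). Knockouts are outside this comparison and enter it through the shared model.

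The 6 abundant messengers of the plus strand did not pass in wild type. mt_Nd5 came nearest, at 0.34 ± 0.14 log2 (adjusted p = 0.0791), and in DESeq2 it rose (0.35, 0.0373). It went from 53935 ± 2266 to 67740 ± 8825 CPM. mt_Cytb read 106110, 106231, 111309 and 115421 CPM at 22 °C and 130248, 125491, 143182, 107467 and 96712 CPM at 6 °C. Its groups overlapped, and its value was 0.14 ± 0.15 log2 (adjusted p = 0.524). mt_Nd2 (0.34 ± 0.17), mt_Nd1 (0.23 ± 0.13), mt_Co1 (0.17 ± 0.14) and mt_Nd4 (0.15 ± 0.16) lay in the same range.

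These small values turn on the scaling. Against total counts, mt_Cytb read -0.075 and mt_Co1 -0.035 log2, while the median of all genes moved from -0.03 to -0.23. Against mitochondrial counts they read -0.11 and -0.068. mt_Nd6 read 1119, 913, 747 and 641 CPM in wild types at 22 °C. At 6 °C it read 1054, 1073, 448, 611 and 555 CPM, with overlap (-0.20 ± 0.27 log2, adjusted p = 0.635). Over the 15 other settings its value ran from -0.45 to -0.17, and it passed in none.

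**Figure D4:**
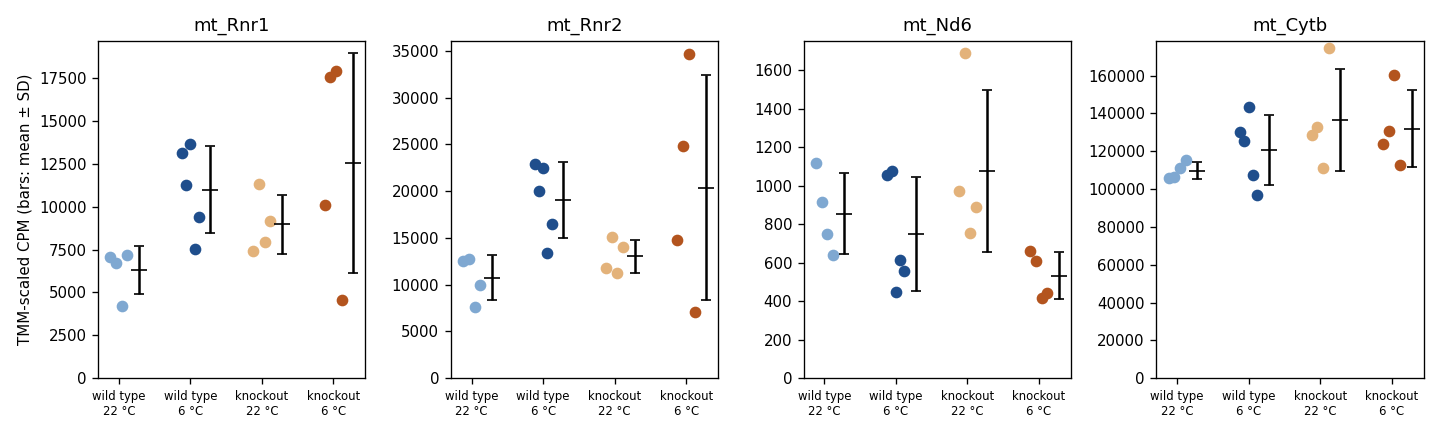
TMM-scaled CPM of mt_Rnr1, mt_Rnr2, mt_Nd6 and mt_Cytb in each library by group, with the group mean ± SD beside the points. The wild-type groups do not overlap for the ribosomal RNAs, the knockout groups do not overlap for mt_Nd6, and mt_Cytb overlaps in both genotypes.

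In knockouts mt_Nd6 fell. It took 0.205% ± 0.083 of mitochondrial counts at 22 °C and 0.10% ± 0.030 at 6 °C (SD, n = 4 and 4). In wild types its share was 0.203% ± 0.051 and 0.150% ± 0.055 (n = 4 and 5), with overlap. The ribosomal RNAs and the messengers of the other strand did not pass in knockouts. There 1 of 13 tested members fell and none rose in edgeR, where 21.6% of all tested genes passed (10.0% fell).

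mt_Nd6 read 971, 1689, 752 and 887 CPM in knockouts at 22 °C. At 6 °C it read 662, 609, 418 and 444 CPM. All cold libraries lay below all 22 °C libraries, as they did in 20.2% of all tested genes counting either direction, and mt_Nd6 fell by 1.00 on the log2 scale (SE 0.29, adjusted p = 0.0213). The call held in all 15 other settings (-1.18 to -0.96, adjusted p of 0.00181 to 0.0493), those relative to nuclear (-0.99, 0.0226) and to mitochondrial counts (-1.02, 0.0493) included. It was lost without knockout 22 °C replicate 1 (-0.99, 0.0521) or 2 (-0.70, 0.11) and without knockout 6 °C replicate 3 (-0.88, 0.0668) or 4 (-0.88, 0.0632). Per 1000 counts of mt_Nd5, its neighbour on the opposite strand, mt_Nd6 had 12.3 to 23.9 counts in knockouts at 22 °C and 4.27 to 10.2 at 6 °C. In wild types this ratio was 12.1 to 21.8 at 22 °C and 5.88 to 15.3 at 6 °C, with overlap.

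mt_Rnr2 read 11826, 15049, 11278 and 13984 CPM in knockouts at 22 °C and 14798, 24846, 34718 and 7044 CPM at 6 °C. The last of these, replicate 4, lay below every 22 °C knockout, and the other 3 included the highest level of the series. The value over the groups was 0.63 ± 0.32 log2 (adjusted p = 0.179). mt_Rnr1 showed the same spread, with 7441, 11326, 7953 and 9191 CPM at 22 °C and 10075, 17574, 17901 and 4570 CPM at 6 °C (0.48 ± 0.31 log2, adjusted p = 0.304). Without knockout 6 °C replicate 4 both rose in knockouts (mt_Rnr2 0.93, adjusted p = 0.00648, and mt_Rnr1 0.78, 0.0178), and mt_Nd6 did not pass.

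mt_Cytb read 128575, 132948, 111008 and 174655 CPM in knockouts at 22 °C and 123737, 130667, 160530 and 112845 CPM at 6 °C. The groups overlapped (-0.05 ± 0.16 log2, adjusted p = 0.867). The 6 abundant plus-strand messengers lay between -0.14 and 0.25 log2, mt_Nd5 again being the highest, and their adjusted p ran from 0.247 to 0.867. Of the low genes, mt_Atp6 had 30, 19, 88 and 7 counts at 22 °C and 14, 13, 4 and 5 at 6 °C. Its value was -1.92 ± 0.81 log2 (adjusted p = 0.103), on counts that are uncertain because of its chromosome 1 copy. The other low members that could be tested were mt_Nd3 (-0.50 ± 0.50 log2 in wild types and -0.05 ± 0.55 in knockouts), mt_Ti (0.30 ± 0.49 and 0.69 ± 0.54) and mt_Tl1 (0.43 ± 0.43 and 0.97 ± 0.47). None of these passed in either genotype.

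**Figure D5:**
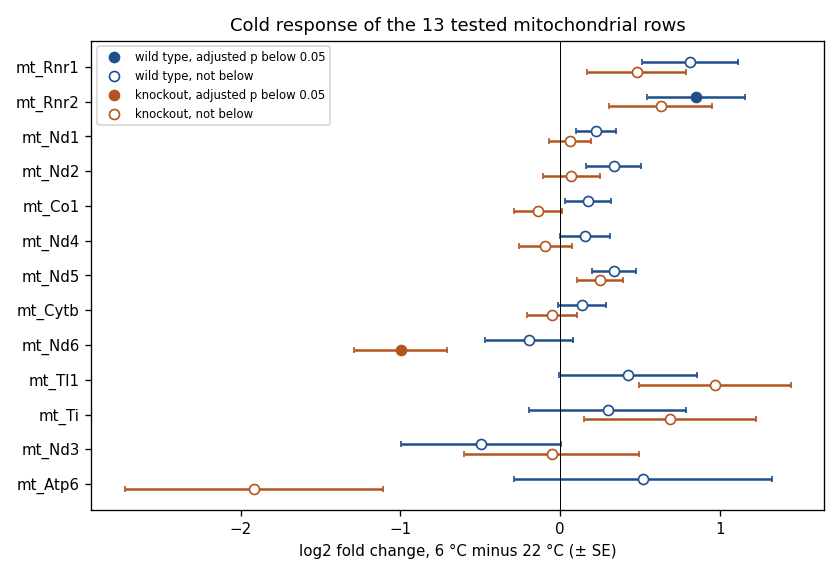
Log2 fold change of each of the 13 tested mitochondrial genes, 6 °C minus 22 °C, with its SE, in wild types and knockouts. Filled points passed an adjusted p of 0.05, which are mt_Rnr2 in wild types (0.85) and mt_Nd6 in knockouts, which fell by 1.00.

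The cold responses of the genotypes were not shown to differ for any member. The difference, knockout minus wild type, was -0.80 ± 0.40 log2 for mt_Nd6 (unadjusted p = 0.061) and -0.22 ± 0.44 for mt_Rnr2 (0.619), by edgeR's quasi-likelihood test. In the 6 abundant plus-strand messengers it ran from -0.31 to -0.09. None of 13 tested members passed over all genes (adjusted p of 1.00 for each), and none did in DESeq2 or limma. Of all tested genes, 0.00801% passed. At an unadjusted p below 0.05 there was 1, mt_Atp6. The pair of calls above, 1 in each genotype, is therefore not evidence of a difference between the genotypes.

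The genotypes were then compared at each temperature, which asks what loss of Noct changes in these transcripts. At 22 °C all 6 abundant plus-strand messengers read higher in knockouts, from 0.12 to 0.36 log2, but none of 13 tested members passed in edgeR (lowest adjusted p = 0.998), in DESeq2 or in limma. At an unadjusted p below 0.05 there was 1, mt_Atp6. The background was small, with 0.0160% of tested genes called. mt_Co1 read 67446 ± 9445 CPM in wild types and 88789 ± 19584 CPM in knockouts (0.35 ± 0.17 log2), and mt_Cytb 109768 ± 4480 and 136796 ± 26962 CPM (0.28 ± 0.17).

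mt_Nd2, a complex I subunit, read 68471, 66622, 56850 and 62078 CPM in wild types and 73070, 82927, 71645 and 109925 CPM in knockouts at 22 °C. Its groups did not overlap, nor did those of mt_Rnr1, as in 4.22% of all tested genes. The value of mt_Nd2 was 0.36 ± 0.20 log2. Relative to mitochondrial counts mt_Cytb read -0.0029 and mt_Nd6 -0.016 log2 between genotypes at 22 °C, against 0.28 and 0.25 ± 0.31 with TMM.

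At 6 °C the plus-strand messengers read 0.01 to 0.12 log2 higher in knockouts, mt_Rnr2 read -0.08 ± 0.34 and mt_Nd6 -0.55 ± 0.29. No member passed in edgeR, DESeq2 or limma, none had an unadjusted p below 0.05, and 0.0400% of all tested genes passed (0.0320% fell). No member had groups without overlap, as 1.04% of all tested genes did.

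Nuclear genes tied to the mitochondrial genome moved in both directions in the cold. The list held 22 genes for transcribing, packaging, copying and upkeep of mitochondrial DNA, with nucleotide-supply genes such as Dguok, Tk2 and Rrm2b. Of these, 2 rose and 5 fell in wild type, and 1 rose and 6 fell in knockouts. Dguok, Tk2 and the nuclease Exog were among those that fell in wild type. Over all tested genes the shares were 14.3% (rose) and 13.3% (fell) for wild type and 11.6% and 10.0% for knockouts. The median was -0.07 and -0.29 log2, against -0.03 and -0.02 for all tested genes. The accessory subunit of the mitochondrial DNA polymerase, Polg2, fell by 1.05 on the log2 scale in wild type and by 0.94 in knockouts. The nuclease Exog fell by 1.09 and 1.20, the deoxyguanosine kinase Dguok by 0.48 and 0.70, and Mterf2, of the family of mitochondrial transcription terminators, by 0.55 and 0.68. The helicase Twnk, which opens the circle for copying, rose (0.42 ± 0.11 and 0.39 ± 0.11), and Mterf3 rose in wild type (0.54 ± 0.15). Polymerase and transcription factor genes Polrmt, Tfam and Tfb2m were not among those that passed in either genotype.

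Of 22 tested genes for processing and decay of mitochondrial RNA, 6 rose and none fell in wild type, and 3 rose and 1 fell in knockouts, with medians of 0.23 and 0.12 log2. The knockout counts are near or below the background of 11.6% rose and 10.0% fell, and the wild-type count stands beside 14.3% rose and 13.3% fell. Fastkd5, needed to mature messengers that no tRNA flanks, rose by 0.93 ± 0.19 in wild type and 0.62 ± 0.20 in knockouts. The poly(A) polymerase Mtpap rose in wild type (0.61 ± 0.13), as did the poly(A)-removing phosphodiesterase Pde12 (0.48 ± 0.14). Trmt10c, a subunit of the RNase P that cuts tRNA 5′ ends, rose in both (0.46 ± 0.14 and 0.51 ± 0.15). Levels of this 1 subunit do not describe the RNase P as a whole. The listed gene 1110008L16Rik fell in knockouts by 0.36 on the log2 scale. In wild type it was lower as well but did not pass (-0.28 ± 0.12). The exonuclease Rexo2 rose in knockouts (0.31 ± 0.10).

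Of 23 tested genes that modify mitochondrial tRNA or rRNA, 4 rose and 2 fell in wild type and 3 rose and 3 fell in knockouts, with medians of 0.0032 and -0.0035 log2. Both counts are near the 27.6% and 21.6% of all tested genes that passed in either direction, so the genes below are given as values and not as a result about the list. Yrdc, which makes a precursor of a tRNA modification, rose by 0.62 ± 0.13 and 1.03 ± 0.14. Trnt1, which adds the CCA end of tRNAs, rose by 0.55 ± 0.19 and 0.63 ± 0.20. Mrm2, a methyltransferase of the large ribosomal RNA, fell by 1.08 in wild type and by 0.80 in knockouts, and the pseudouridine synthase gene Rpusd3 by 1.03 and 1.10. Rpusd4, of the same family, fell in knockouts by 0.92. By edgeR's quasi-likelihood test, in none of these 3 lists did a member pass between genotypes at either temperature, or for the difference of the cold responses.

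Few nuclear-encoded partners of the same complexes passed. Of 77 tested nuclear subunits of complexes I, III, IV and V, 1 rose and none fell in wild type, and 1 rose and 2 fell in knockouts, with medians of 0.03 and -0.06 log2, where 27.6% and 21.6% of all tested genes passed in either direction. The ATP synthase subunit gene Atp5l rose in both genotypes (0.39 ± 0.12 and 0.56 ± 0.13). Atpif1, the inhibitor of ATP synthase, fell in knockouts by 0.56 on the log2 scale, and the complex I gene Ndufv3 by 0.32. Of complexes III and IV none passed. In complex I, where none passed in wild type, Ndufs1 (516 CPM over all libraries) was the most counted. The most counted genes of complexes III and IV were Uqcrc2 (667 CPM over all libraries) and Uqcrc1 (515 CPM), and Cox4i1 (461 CPM) and Cox6a1 (430 CPM).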

How the data were processed

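The files hold mRNA-seq of 17 brown fat samples. The authors deposited raw read counts per gene symbol, and a second table of RPKM values. The tools STAR and HTSeq and the builds mm10 and GRCm38.p6 are named, without versions, per the submitters' processing notes; annotation and strand setting are not stated there. Counts divided by RPKM and the library total gave 1 length per gene in all libraries, to a relative spread of at most 9.68e-15 over 17103 genes, so the deposited RPKM are the counts per total count and gene length.

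The deposited counts were fitted with edgeR 4.0.16 (R 4.3.3). filterByExpr by group kept 12486 genes, TMM scaled the libraries, and 1 quasi-likelihood model of all 17 libraries had a mean per group and labelled sex (12 residual degrees of freedom). P values were adjusted by Benjamini-Hochberg across every tested gene, and 0.05 was the threshold. CPM are given as mean ± SD over mice and log2 fold changes ± SE. Groups came from sample titles, and the samples of a group are separate mice, per the series' text. Libraries of a group differed by at least 22.3 times the chi-square of counting noise, so none was the same library counted again. This measure cannot tell whether libraries came from the same mouse. The floor of 3 counts covers counting error only, while SD and SE include the spread between mice. Reads carry no molecular identifiers. The procedure was tested on simulated data.

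Shared windows were counted between all 50-base windows of the mitochondrial transcripts and all other GENCODE vM21 transcripts (GRCm38), on both strands. No genome sequence was used, so copies outside annotated transcripts were not seen.

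Alternatives were DESeq2 1.42.0 size factors or Wald test, scaling to total, nuclear or mitochondrial counts, other low-count filters, limma 3.58.1 (limma-trend on log2 RPKM with pseudocounts of 1 and 0.1), other covariates, a replicate block, subsets of samples, and leaving out each library. The members, the lists and the rule for named genes were chosen with earlier results of these data known. All 37 genes were accounted for. Values per sample were given for members past the threshold in any comparison, the highest gene of each class, mt_Nd6 and mt_Cytb. mt_Nd2 and mt_Atp6 were added after their values were seen. Of each nuclear list, up to 4 passing genes with the largest change were named, or up to 2 with the highest level where none passed; 1 gene this rule took is not reported here. Twnk, Polrmt, Tfam and Tfb2m fall outside this rule and were chosen with their values known.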

Additional observations from a re-analysis of the deposited data

Results flagged for a closer look

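Library values were examined for a sample far from the rest of its group, in 88 groups of values, and 8 stood out; chance gives about 1 in 20. Knockout 22 °C replicate 2 stood at 41.4 CPM for mt_Co3; the remaining 3 of its group ranged from 0 to 0.0862 CPM. Wild-type 22 °C replicate 2 was marked for mt_Co3 on 1 count (0.0192 CPM, against 0 in the others). Wild-type 6 °C replicate 3 had 1.28 CPM of mt_Co2 where the others had 0 to 0.124 CPM. All 3 values concern genes with near-identical copies on chromosome 1.

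Among abundant genes, mt_Co1 reached 117839 CPM in knockout 22 °C replicate 4, against 76661 to 83186 CPM in the others. mt_Nd5 reached 97781 CPM in knockout 6 °C replicate 3, against 64762 to 69873 CPM. In the same library the messengers of the mitochondrial genome had 45.3 counts for each count of the listed nuclear subunits, against 27.04 to 29.4 in the others. Wild-type 22 °C replicate 3 had the lowest mt_Rnr1 of its group, 4237 CPM against 6742 to 7194 CPM. In wild-type 6 °C replicate 3 the ratio of mt_Rnr2 to mt_Rnr1 counts was 1.64, against 1.75 to 1.78 in the others.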

How the results depend on the processing

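Of 692 values of single genes under alternatives, 632 kept their direction and their side of the threshold. The genotype and difference comparisons had 0 members called in all 92 alternatives. The number of members called in the wild-type cold response, 1 in the main model, was 2 with DESeq2 size factors, without a low-count filter and on the compared groups alone, 3 in the DESeq2 Wald test, and 0 with total or mitochondrial scaling, at least 1 CPM in 4 samples, limma-trend with either pseudocount, no sex term, sex and age, the replicate block with or without sex, and the majority sex; leaving out 1 library gave 0 to 3. In knockouts it was 2 without a low-count filter (mt_Co3 added, a gene counted almost only in 1 library) and otherwise 1, and 0 to 2 without 1 library. With the replicate block and sex mt_Nd6 fell in knockouts by 0.99 on the log2 scale (adjusted p = 0.00253). Deviations of same-numbered libraries correlated at r = -0.41 to 0.43 over genes, and 5 of 17 libraries correlated best with their own number. No pairing by number was seen, but so few libraries per group cannot exclude one.

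Signs turned only in values that did not pass. In the wild-type cold response mt_Cytb read -0.075 (total), -0.11 (mitochondrial), -0.079 and -0.079 (limma-trend), and mt_Co1 -0.035, -0.068, -0.026 and -0.026. Without 1 library, mt_Cytb in knockouts ranged from -0.16 to 0.085 and was above 0 without 22 °C replicate 4 or 6 °C replicate 4 (0.043), and mt_Co1 ranged from -0.19 to 0.026 (above 0 without the former). Between genotypes at 22 °C mt_Nd6 read -0.016 and mt_Cytb -0.0029 with mitochondrial scaling, and mt_Rnr2 -0.0071 with total and -0.12 with mitochondrial scaling. At 6 °C mt_Rnr2 read 0.10 without sex, and -0.38 to 0.16 without 1 library (above 0 without knockout 6 °C replicate 1 or 4). Its difference of cold responses ranged from -0.57 to 0.071, above 0 without replicate 4. The cause was not tested. The low counts of the tRNAs and of the 6 low protein-coding genes limit what could be tested: 24 members were not.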

Other observations

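The ribosomal RNAs of the mitochondrial genome took 2.81 to 4.68% of mitochondrial counts in wild types at 22 °C and 4.43 to 6.84% at 6 °C. In knockouts they took 3.47 to 5.02% at 22 °C and 2.52 to 7.80% at 6 °C, the widest range of the 4 groups. Both lie on 1 precursor, with the transfer RNA mt_Tv between them. The count of mt_Rnr2 for each count of mt_Rnr1 was 1.39 to 1.89 in wild types at 22 °C and 1.64 to 1.78 at 6 °C. In knockouts it was 1.33 to 1.59 and 1.41 to 1.94. For each count of mt_Cytb there were 0.0687 to 0.12 counts of mt_Rnr2 in wild types at 22 °C and 0.124 to 0.176 at 6 °C, without overlap, and 0.0801 to 0.113 and 0.0624 to 0.216 in knockouts. These ratios do not depend on the scaling between libraries and were not tested.

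Messengers of the mitochondrial genome, as counted, had 23.5 to 45.3 counts for each count of the listed nuclear subunits of complexes I, III, IV and V. The range was 25.4 to 27.9 in wild types at 22 °C, 23.5 to 33.6 at 6 °C, 26.2 to 37.03 for the knockout 22 °C libraries and 27.04 to 45.3 for those at 6 °C. The groups overlapped in each comparison. This ratio does not set like against like, because the 6 low protein-coding genes add almost nothing to its mitochondrial side. For ATP synthase, mt_Atp6 and mt_Atp8 had 285 and 5 counts over all libraries. Its nuclear subunits, such as Atp5b (2705 CPM), were counted in full.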
